A study of Mus musculus with 6 samples.

Results

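The Ifitm genes of blood cells were followed in CD11b+ marrow cells of the mouse femur and mandible. The members were taken by symbol from the deposited gene lists, and all 4 (Ifitm1, Ifitm2, Ifitm3 and Ifitm6) were found among 32285 genes. The study compared marrow of the long bones with marrow of the jaw by single-cell RNA sequencing, with 3 femur and 3 mandible libraries. All mice were untreated C57Bl/6 animals 2 months old. Femur replicate 1 was female, and femur replicates 2 and 3 and mandible replicates 1 to 3 were male. For the femur libraries the labels name femurs and tibiae as the source of the flushed marrow, whereas the methods of the study name femurs alone. For the mandible libraries the molars had been extracted and the sockets were flushed. All cells had been selected with magnetic beads for CD11b, a surface integrin of neutrophils, monocytes and macrophages. The number of mice in a library is not stated, so the spread between libraries may be partly technical.

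Interferon-induced transmembrane (Ifitm) proteins are small membrane proteins that hinder the fusion of enveloped viruses with the host cell. Ifitm1 acts mostly at the cell surface and Ifitm2 and Ifitm3 mostly in endosomes. Their genes can be induced by interferons through factors that bind interferon-stimulated response elements, and several are also switched on in myeloid cells in the absence of infection. Neutrophils mature in the marrow from granule-making precursors that divide, through non-dividing immature cells, to cells ready to leave for the blood.

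The members lay together on chromosome 7 of the mouse build mm10, within 63088 bases (GENCODE vM21). Ifitm2 (ENSMUSG00000060591) spanned chr7:140954837-140955987 on the minus strand, and Ifitm1 (ENSMUSG00000025491) spanned chr7:140967221-140969825 on the plus strand. Ifitm3 (ENSMUSG00000025492) at chr7:141009586-141010770 and Ifitm6 (ENSMUSG00000059108) at chr7:141015699-141017924 were both on the minus strand. Because the members are relatives, the last 500 bases of their transcripts were cut into windows of 91 bases, since reads of this 3' assay fall there. None of the windows of 1 member occurred in another member. For Ifitm2, 26.1% of the windows occurred in other annotated transcripts (Gm45717, which overlaps Ifitm2 on the same strand and is not among the deposited genes, Gm8865 and Gm11951). The share of each was not separated. Windows at genomic bases that Gm45717 shares with Ifitm2 are not ambiguous for that reason alone. Reads in windows shared with Gm8865 or Gm11951 may not have been placed uniquely. Ifitm1, Ifitm3 and Ifitm6 had no such window.

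Sequence next to a RefSeq start of each member is shown because the members differed in letters that resemble interferon elements. The stretches come from RefSeq (GRCm38.p6), and all 4 members had an entry, which ran from 250 bases before to 50 bases after the annotated start. All 4 starts lay inside the gene spans given above, near the 5' end for Ifitm2 (140955961) and Ifitm3 (141010744). For Ifitm1 and Ifitm6 the start (140968076 and 141016892) lay further in. Their stretches therefore lie within the gene, and the bases before the 5' end of those spans were not searched. They were searched on both strands for the interferon-stimulated response element as GAAANNGAAA, the gamma-activated site as TTCNNNGAA and a C/EBP site as TTGCNNAA. Capitals mark the response element in the lines of Ifitm2 and Ifitm3 and the gamma-activated site in that of Ifitm6. The gamma-activated letters of Ifitm3, which run into its second response element, are not marked. The first 4 lines each hold 100 bases that end before the first exon annotated in the window, and the last lines hold 30 bases around the remaining matches.
Ifitm1, chr7:140967928-140968027, plus strand: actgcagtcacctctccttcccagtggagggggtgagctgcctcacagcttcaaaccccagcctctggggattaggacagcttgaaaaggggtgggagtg
Ifitm2, chr7:140955988-140956087, minus strand: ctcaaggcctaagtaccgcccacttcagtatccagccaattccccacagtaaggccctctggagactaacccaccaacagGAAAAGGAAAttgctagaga
Ifitm3, chr7:141010771-141010870, minus strand: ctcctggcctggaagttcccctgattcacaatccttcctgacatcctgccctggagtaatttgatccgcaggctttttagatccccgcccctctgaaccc
Ifitm6, chr7:141016909-141017008, minus strand: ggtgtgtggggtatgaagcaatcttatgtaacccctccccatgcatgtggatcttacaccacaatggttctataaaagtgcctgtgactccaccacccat
Ifitm3, response elements, chr7:141010714-141010743, minus strand: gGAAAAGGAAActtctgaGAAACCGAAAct
Ifitm6, gamma-activated site, chr7:141016883-141016912, minus strand: ccatatgaacTTCCTTGAAacaagagcttc

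Ifitm2 held 1 match to the response element, from 46 to 37 bases before its start. Ifitm3 held 2 matches, at bases 3 to 12 and 20 to 29 counted from its start, with 1 gamma-activated match at bases 14 to 22 between and across them. Ifitm6 held 1 gamma-activated match, from 10 to 2 bases before its start, and Ifitm1 held none of the 3 motifs in its window. No member had the C/EBP letters. Of 32817 promoter windows of the same length, 3.43% held the response element, 8.29% the gamma-activated site and 10.8% the C/EBP letters. A match describes letters in these windows and is not evidence that a factor bound there.

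The authors kept 69776 of 74091 barcodes, and the libraries held between 82962160 and 244946998 UMIs (unique molecular identifiers, 1 per captured transcript molecule) in those cells. Each pair of libraries shared 0.193% to 0.651% of the barcodes of the smaller one. Levels are counts per 1000000 UMIs (CPM), summed over the cells of a library in a cluster of the deposited metadata. The clusters are named here by number, and those of neutrophils are shown from precursors on, in the order 4, 0, 3, 2 and 1. Median UMIs per cell in these clusters were 21561, 11168, 7000, 5757 and 4591. A higher CPM is thus a larger share of a cell's UMIs and need not be more UMIs per cell. By the deposited reference labels, 95.2% of cluster 4 and 99.8 to 100% of clusters 0 to 3 were neutrophils. The precursor markers Elane, Mpo, Prtn3, Ctsg and Fcnb summed to between 2917 and 4758 CPM in cluster 4, to between 172 and 368 CPM in cluster 0 and to at most 42.0 CPM in clusters 1 to 3. They set clusters 4 and 0 apart but do not rank clusters 3, 2 and 1, whose order in maturation was not tested. Cluster 5 held 50.8% monocytes and 34.4% cells labelled neutrophils, cluster 6 held 85.0% B cells, cluster 7 neutrophils with a median mitochondrial share of 6.78%, and cluster 8 cells with high haemoglobin transcripts, of which femur replicate 3 held 11. Femur replicate 3 stood apart. It held 22797 kept cells, against 7763 to 11611 in each other library, and whether this bears on its levels was not tested. It had the highest Ifitm1 level in 8 of 9 clusters and the highest Ifitm2 level in 9 of 9, at a median of 2.34 and 1.96 times the mean of the other femur libraries. It was also highest for Ifitm3 in 5 clusters and for Ifitm6 in 3, with medians of 1.69 and 1.70 times. The members' differences between the sites that it moved are therefore given with and without it.

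Among the neutrophil clusters 4, 0, 3, 2 and 1, Ifitm1 was lowest in the precursors of cluster 4 and highest in cluster 1. In cluster 4 it measured 16.2, 26.8 and 82.7 CPM in femur replicates 1 to 3 and 14.4, 35.9 and 24.3 CPM in mandible replicates 1 to 3. In cluster 1 it measured 844, 676 and 1779 CPM in the femur and 466, 798 and 511 CPM in the mandible. Within a library the level was 21.1 to 52.2 times higher in cluster 1 than in cluster 4 (median 23.7). The step from cluster 3 to cluster 2 was the steepest, from 95.9 ± 48.4 to 522 ± 281 CPM (mean ± SD, n = 6 libraries), a median of 5.66-fold within a library. The order of the 9 clusters by mean was 1, 2, 7, 5, 8, 3, 6, 0 and 4. Neighbours in this order overlapped between libraries, although all 6 libraries were higher in cluster 1 than in cluster 2, in cluster 2 than in cluster 7 and in cluster 7 than in cluster 5. Clusters were formed on expression, so levels between clusters are given as a description without a test.

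Ifitm6 had the opposite order over clusters 0, 3, 2 and 1. In cluster 0 it measured 2904, 2229 and 2957 CPM in the femur and 2472, 3108 and 2666 CPM in the mandible, the highest level of this gene in any cluster. Its mean was 2101 ± 695 CPM in cluster 3, 1223 ± 463 CPM in cluster 2 and 711 ± 377 CPM in cluster 1 (SD, n = 6). Within a library the level was 2.29 to 9.13 times higher in cluster 0 than in cluster 1 (median 4.42), and it was lower at every step from 0 to 3, 2 and 1 in 6 of 6 libraries. Precursors of cluster 4 stood at 886 ± 198 CPM, a median of 3.10-fold under cluster 0. Femur replicate 2 was the lowest library in clusters 0 to 5 and mandible replicate 2 the highest in 6 of 9 clusters. By mean the order was 0, 3, 7, 8, 2, 5, 4, 1 and 6, and all neighbours overlapped between libraries.

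Ifitm2 had a higher CPM in each cluster of the order 4, 0, 3, 2 and 1 than in the one before it, while UMIs per cell fell. Its means were 251 ± 53.6 CPM in cluster 4, 355 ± 120 in cluster 0, 561 ± 218 in cluster 3, 833 ± 417 in cluster 2 and 1128 ± 640 in cluster 1 (SD, n = 6). This held in 6 of 6 libraries, by a median of 1.32-fold to 1.57-fold a step, and cluster 1 was 2.93 to 6.94 times higher than cluster 4. Cluster 5 followed clusters 1 and 2 with 719 ± 153 CPM, and cluster 6 was lowest with 146 ± 82.6 CPM. Neighbours in the order 1, 2, 5, 7, 3, 0, 8, 4 and 6 all overlapped between libraries.

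In CPM, Ifitm3 was highest in cluster 5 and nearly level over the neutrophil clusters 3, 2 and 1. In cluster 5 it measured 2095, 2569 and 2406 CPM in the femur and 2580, 2260 and 2004 CPM in the mandible. These 6 values lay above every library of cluster 3, which came next with 1080 ± 290 CPM. Among neutrophils it was 399 ± 101 CPM in cluster 4 and 817 ± 168 CPM in cluster 0, a median difference of 2.08-fold within a library. It lay between 976 ± 320 and 1080 ± 290 CPM in clusters 1 to 3 (SD, n = 6), where neighbouring clusters differed by a median of at most 1.09-fold. Cluster 6 was lowest with 188 ± 72.7 CPM and did not overlap with cluster 4, the next above it. The order by mean was 5, 3, 2, 1, 0, 7, 8, 4 and 6.

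**Figure D1:**
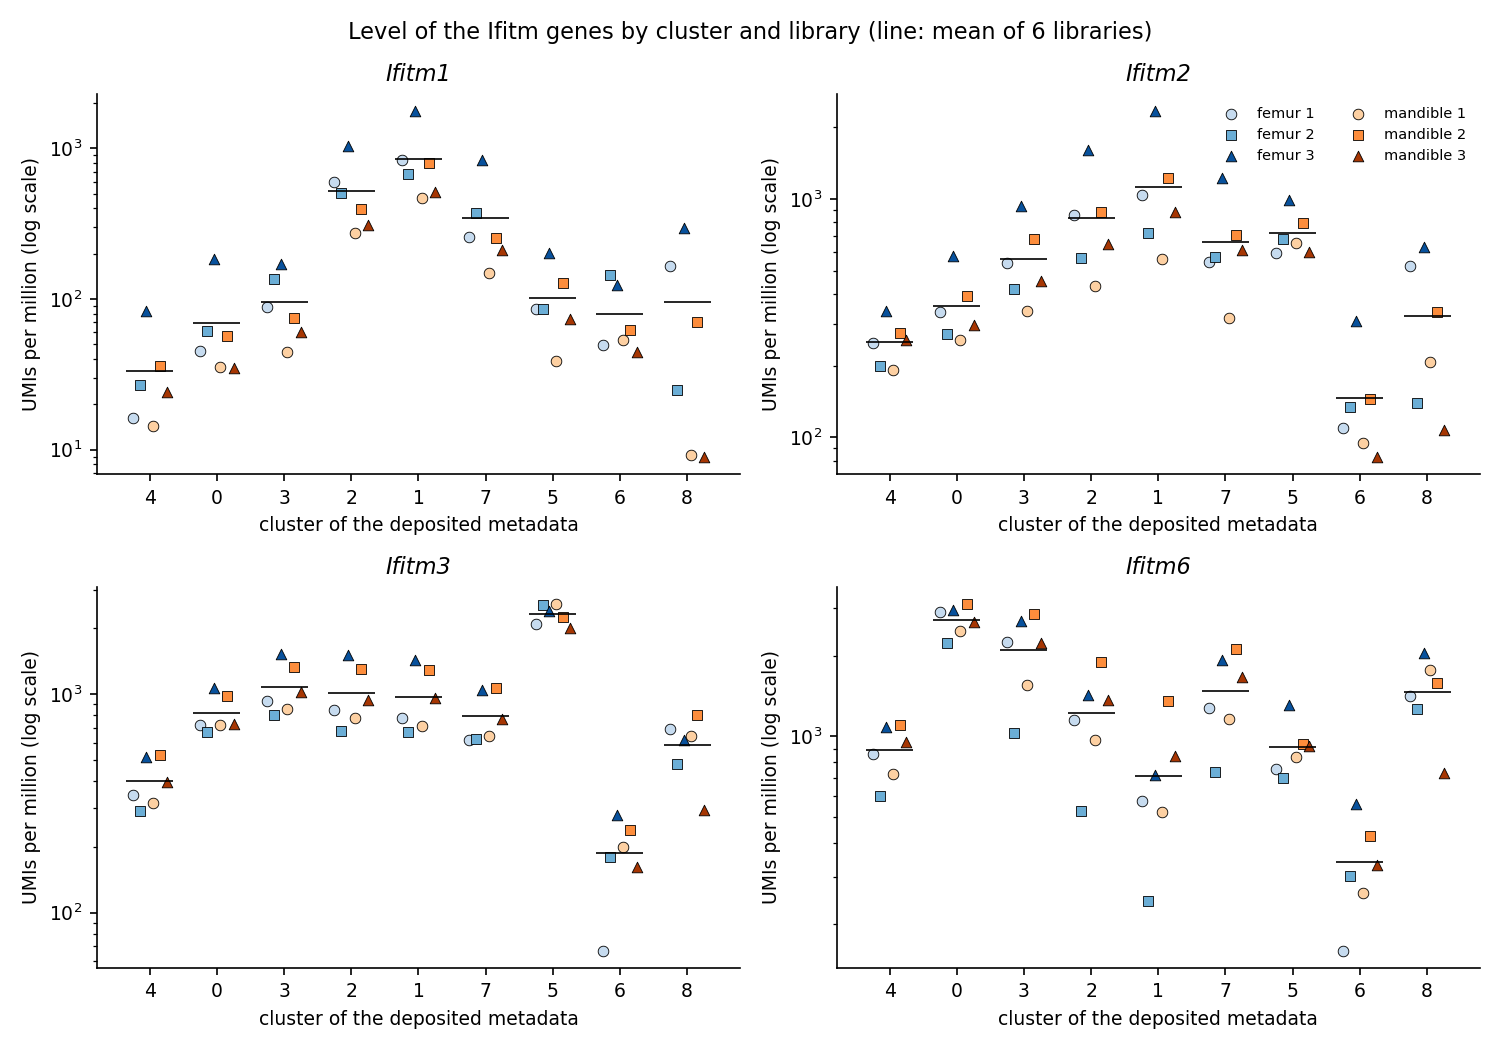
Level of each Ifitm gene in CPM (log scale) by cluster, with 1 point per library and a line at the mean of the 6 libraries. Ifitm1 and Ifitm2 have their highest means in cluster 1, Ifitm6 in cluster 0 and Ifitm3 in cluster 5, with femur 3 as the highest point for Ifitm2 in all 9 clusters.

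The cells of cluster 5 differed by their deposited labels. Monocyte-labelled cells held Ifitm3 at 3349, 3635 and 3890 CPM in the femur and 3498, 3330 and 3114 CPM in the mandible (cells per library, 488 to 772). All 6 values lay above every library of the whole clusters. Ifitm2 measured 913 ± 188 CPM and Ifitm6 563 ± 50.2 CPM in them (SD, n = 6). Ifitm1 was at 7.15 to 31.9 CPM in the same monocytes, and after thinning each cell to 1000 UMIs 1.37% of them had an Ifitm1 UMI. B-labelled cells of all clusters, which should hold little Ifitm1, had such a UMI in 0.905% of cells. Median depth was 9328.5 UMIs in the monocytes and 3885 in the B cells, and without thinning the shares were 10.2% and 3.60%. The B cells of cluster 6 held Ifitm1 at 4.16 to 22.5 CPM per library, on 1 to 11 UMIs. These ranges overlapped between libraries, but within a library the monocytes, on 44 to 185 UMIs, were higher in 6 of 6. For Ifitm3, the thinned shares were 91.05% in monocytes and 4.45% in B cells.

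Most Ifitm1 UMIs of cluster 5 came from cells labelled otherwise. The 2529 neutrophil-labelled cells, 34.4% of the cluster, held 74.9% of them. Monocytes, 50.8% of the cells, held 5.69%. The 47 basophil-labelled cells, 0.639% of the cluster, held 9.61% of the Ifitm1 UMIs at 2921 CPM. Basophils are granulocytes of allergic inflammation, and their defining proteases stood at 13463 CPM (Mcpt8) and 24027 CPM (Prss34) over the 53 basophil-labelled cells of all clusters. In these 53 cells Ifitm1 stood at 2755 CPM, above its level in neutrophil-labelled cells (260 CPM), and 73.1% of them had an Ifitm1 UMI after thinning. Ifitm6 stood at 65.5 CPM in the basophils, beside 52.1 CPM in B-labelled cells. Basophil values rest on few cells, with 17 and 19 cells in mandible replicates 2 and 3 (3657 and 3075 CPM of Ifitm1 in cluster 5) and 2 or 3 cells in each other library.

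Dendritic cells and macrophages held intermediate levels of Ifitm3. In cluster 5 the dendritic label gave 1621 ± 401 CPM of Ifitm3 and the macrophage label 892 ± 333 CPM (SD, n = 6). Ifitm6 measured 193 ± 60.6 and 144 ± 64.9 CPM in these labels, and Ifitm2 measured 513 ± 162 and 301 ± 122 CPM. Neutrophil-labelled cells of cluster 5 had 1579 ± 221 CPM of Ifitm3 and 1397 ± 268 CPM of Ifitm6, so that they carried more Ifitm6 than monocytes in 6 of 6 libraries. Femur replicate 1 was the lowest macrophage library for Ifitm3 at 449 CPM, with 167 cells.

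**Figure D2:**
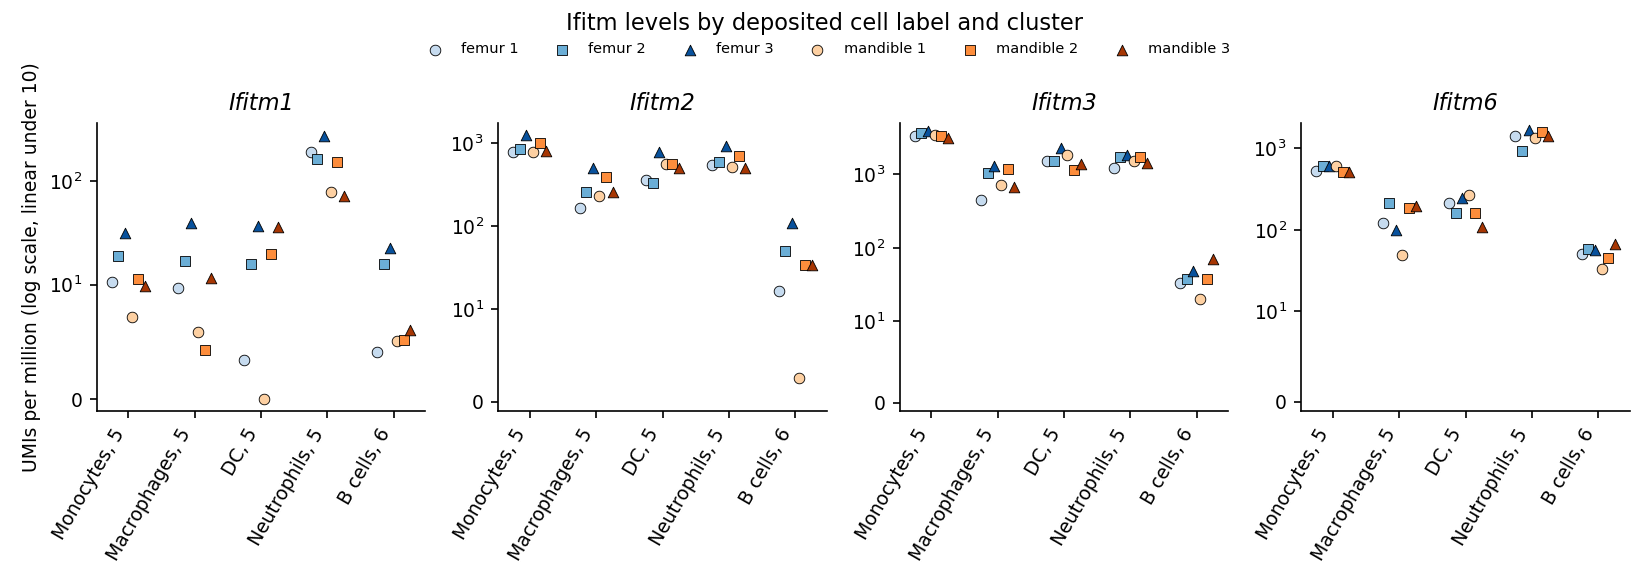
Level of each Ifitm gene in CPM (log scale, linear under 10) in 4 deposited labels of cluster 5 and in the B cells of cluster 6, with 1 point per library. Monocytes lead for Ifitm3 (3114 to 3890 CPM) and lie below 32 CPM for Ifitm1, close to the B cells.

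The members also varied with the deposited cell cycle phase inside a cluster. In cluster 0, cells called G1 had 2280 to 3219 CPM of Ifitm6 and cells called G2M had 903 to 1345 CPM. The ratio was 2.31 to 2.53 (median 2.39) in 6 of 6 libraries. In cluster 5, Ifitm3 was 1.82 to 3.48 times higher in G1 than in S phase cells (median 2.15, higher in 6 of 6 libraries). In cluster 0 Ifitm1 was lower in G1 than in S phase cells in 6 of 6 libraries (median ratio 0.730) and higher in G1 than in G2M cells in 2 of 6. Ifitm2 was higher there in G1 than in S phase cells in 2 of 6 libraries (0.94) and than in G2M cells in 1 of 6 (0.93). In cluster 5 Ifitm1 was 1.66 to 7.92 times higher in G1 than in G2M cells (median 4.73, 6 of 6 libraries). Against S phase cells it was higher in G1 in only 2 of 6 libraries (median ratio 0.754). Phase calls rest on a score and mix with cell type in cluster 5, whose part in the ratios was not tested.

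Across cells of 1 library, Ifitm2 and Ifitm3 varied together in cluster 5, with a Spearman correlation of UMIs per cell total of 0.56 to 0.69 over 6 libraries. Ifitm3 and Ifitm6 did so in cluster 4, with 0.48 to 0.61. In clusters 0 to 3 the correlation of any 2 members lay between -0.21 and 0.36, and Ifitm1 with Ifitm6 was at -0.21 to -0.10 in cluster 2. The cells share their library and the counts are sparse, so these values are a description.

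Over the 54 profiles of 6 libraries and 9 clusters, the log2(CPM + 1) level of Ifitm2 followed Ifitm3 (Pearson r = 0.81) and Ifitm1 (r = 0.78), while r was -0.03 for Ifitm1 and Ifitm6. Profiles of a library share its depth and composition. Among 4982 genes with at least 50 CPM in a cluster, the 5 most like Ifitm1 were Socs3, a feedback inhibitor of cytokine signalling (r = 0.90), Sycp2 (0.90), Gm5150 (0.89), H2-Q10 (0.88) and Gcnt2, a glycan-branching enzyme (0.88), each highest in cluster 1 by mean. Those most like Ifitm2 were Csf2rb, the shared beta chain of cytokine receptors (0.91), Tyrobp, a signalling adaptor (0.89), Mrpl33 (0.88), Spi1, the myeloid factor PU.1 (0.87), and Cebpb (0.87). Those most like Ifitm3 were Lgals3, the lectin galectin-3 (0.93), Fcer1g, an Fc receptor chain (0.91), Alox5ap (0.83), Smpdl3a (0.83) and Apoc2 (0.83). Those most like Ifitm6 were Qsox1 (0.89), Slc31a2 (0.89), Flot2 (0.89), Cd177, a neutrophil surface protein (0.87), and Mettl9 (0.86), all highest in cluster 0.

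The make-up of the family differed between the neutrophil clusters, with a smaller share of Ifitm6 and larger shares of Ifitm1 and Ifitm2 in cluster 1 than in cluster 0. Each UMI counts a molecule by its 3' end, so shares of the 4 genes do not depend on transcript length. Ifitm6 took 69.0% ± 3.91 of the family's UMIs in cluster 0, 54.2% ± 6.36 in cluster 3, 34.3% ± 8.36 in cluster 2 and 19.7% ± 7.78 in cluster 1 (SD, n = 6). Over the same clusters Ifitm1 went from 1.68% ± 1.11 to 22.9% ± 5.79, Ifitm2 from 8.79% ± 1.67 to 29.8% ± 4.66, and Ifitm3 stayed between 20.5% and 28.6%. By mean, Ifitm6 still took the largest share in cluster 2 and Ifitm1 the smallest (14.6% ± 5.54). Ifitm6 was largest there in femur replicate 1 and in the mandible libraries. In femur replicate 2 it took 23.1%, below Ifitm3 (29.7%) and Ifitm2 (24.9%). In femur replicate 3 Ifitm6 took 25.6%, below Ifitm2 (28.8%) and Ifitm3 (27.0%). The sum of the family was 3964 ± 606 CPM in cluster 0 and 3660 ± 1551 CPM in cluster 1. In cluster 5, Ifitm3 made up 57.6% ± 5.52.

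The shares of Ifitm1 and Ifitm6 also lay apart between the sites in clusters 1, 2 and 7. In cluster 1 Ifitm1 took 26.1, 29.3 and 28.3% of the family in femur replicates 1 to 3 and 20.5, 17.1 and 16.0% in mandible replicates 1 to 3. Ifitm6 took 17.7, 10.6 and 11.4% in the femur and 23.1, 29.1 and 26.5% in the mandible. The sites did not overlap in either share, and femur replicate 3 lay within the range of the other femur libraries for Ifitm1 and for Ifitm6. In cluster 1 there were 0.361 to 0.680 UMIs of Ifitm6 per UMI of Ifitm1 in femur libraries and 1.13 to 1.70 in mandible libraries, and in cluster 2 it lay at 1.04 to 1.92 and 3.52 to 4.77, respectively. Over the 9 clusters, Ifitm1 took a smaller share in every mandible library than in any femur library in 5 clusters (1, 2, 3, 6 and 7), Ifitm2 in 6 clusters and Ifitm6 a larger share in 3 clusters (1, 2 and 7). Ifitm3 took a larger share in 1 cluster (6). These counts carry no test. A share of the family has no counterpart over all genes, so that they are read against no background, and the 4 shares of a library sum to 100% and are not independent. The ratio of Ifitm6 to Ifitm1 was chosen after its values had been seen. Summed marker levels also differed between the sites in cluster 1, without overlap for monocyte markers and with overlap for neutrophil markers. The summed level of 6 monocyte markers was 329 to 427 CPM in the femur and 516 to 655 CPM in the mandible, and that of 8 neutrophil markers was 159897 to 230257 and 218262 to 280110 CPM. In cluster 2 the monocyte markers were at 532 to 670 and 755 to 857 CPM. Their part in the difference was not tested.

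**Figure D3:**
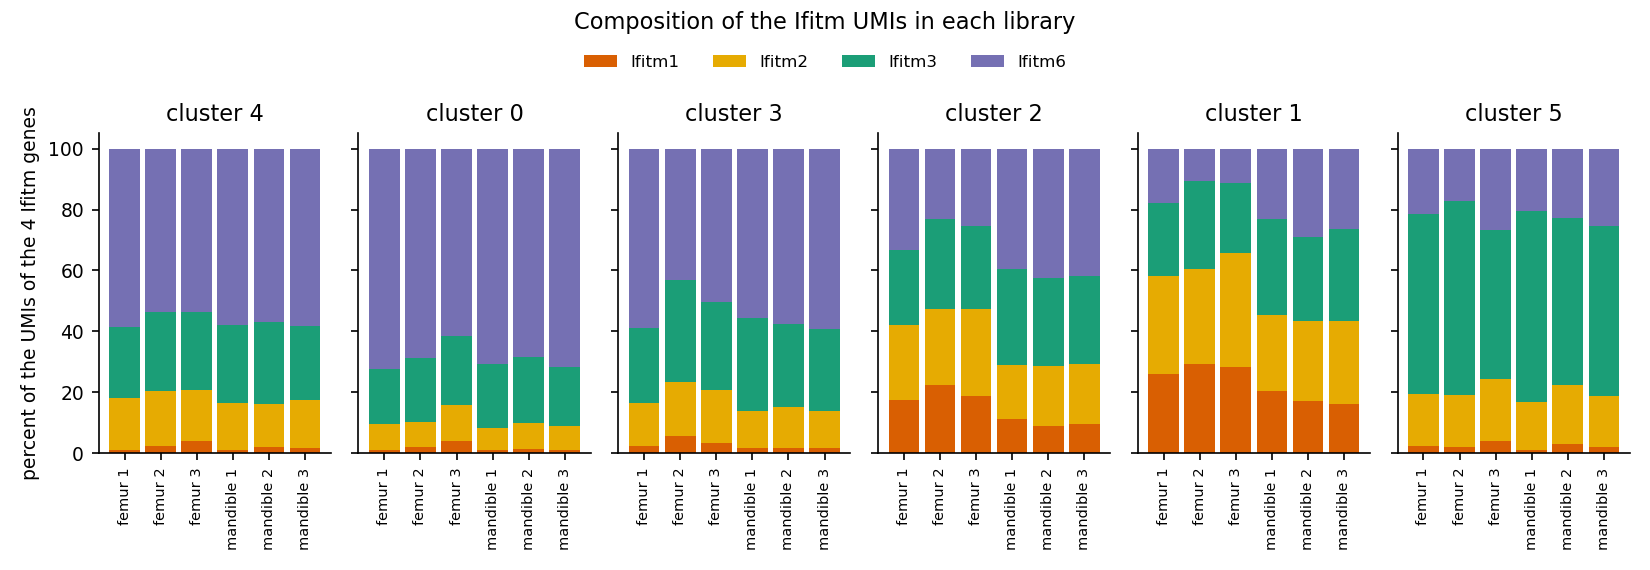
Percent of the UMIs of the 4 Ifitm genes that each gene took, with 1 bar per library, in clusters 4, 0, 3, 2, 1 and 5. Ifitm6 takes less in cluster 1 than in cluster 0. In clusters 1 and 2 it takes less in the 3 femur libraries (10.6 to 17.7% in cluster 1) than in the 3 mandible libraries (23.1 to 29.1%). In clusters 4, 0, 3 and 5 the sites overlap.

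Between the sites, mandibular-derived cells had less Ifitm1 in each cluster by mean, about as much Ifitm3, and more Ifitm6 in the neutrophils of cluster 1, but no difference passed the test across all genes. Whether the level of a member differed between the sites was tested on the summed counts of each cluster with edgeR's quasi-likelihood test, with p-values adjusted over all genes of the cluster. None of the 36 pairs of member and cluster passed the threshold of 0.05. At an unadjusted p under 0.05 there were 6 of 36 pairs (5 of Ifitm1 and 1 of Ifitm2), beside 8.42% of all gene and cluster pairs. Over all genes edgeR called 0.0284% of 84533 pairs. DESeq2 called 2 of the 36, beside 0.927% over all genes. Over all cells of a library, 0 of 4 members passed in edgeR, as did 0.0% of 16381 genes. There, 1 member was under an unadjusted p of 0.05, beside 9.37% of genes, and DESeq2 called 1, beside 1.46%.

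Ifitm1 was lower in mandibular-derived cells in 9 of 9 clusters. In cluster 2 it measured 601, 506 and 1038 CPM in the femur and 276, 398 and 309 CPM in the mandible, without overlap (log2 fold change -1.11, SE 0.32, edgeR adjusted p = 0.208). In cluster 3 it measured 88.7, 136 and 172 CPM against 44.2, 75.4 and 59.99 CPM, again without overlap (-1.16, SE 0.32, adjusted p = 0.604). DESeq2 called Ifitm1 in these 2 clusters, with adjusted p-values of 0.0151 and 0.0287. In cluster 7, where values were lower in the mandible without overlap too, the fold change was -1.21 (SE 0.43, edgeR adjusted p = 0.715). The other fold changes were -1.20 (SE 0.55) in cluster 0, -0.77 (SE 0.38) in cluster 1, -0.77 (SE 0.56) in cluster 4, -0.73 (SE 0.52) in cluster 5, -1.11 (SE 0.31) in cluster 6 and -2.20 (SE 0.90) in cluster 8, all with overlapping libraries. The value of cluster 8 rests on few counts, with 202, 3 and 47 Ifitm1 UMIs in the femur and 2, 34 and 1 in the mandible. In cluster 5 the 8 neutrophil markers summed to between 67719 and 183754 CPM in the femur, with femur replicate 3 highest, and to between 81540 and 116501 CPM in the mandible. The part of these neutrophils in the Ifitm1 value was not tested, and in the neutrophil-labelled cells of the cluster Ifitm1 measured 191, 164 and 275 CPM in the femur and 78.2, 153 and 71.5 CPM in the mandible, without overlap. The nearest of these were 164 and 153 CPM, and the share of all genes without overlap was not computed for these cells. The 3 pairs without overlap were all of Ifitm1. They compare with 7.89% of all gene and cluster pairs that were lower in every mandible library and 5.02% that were higher, so that 3 of 36 is near the background.

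Over all cells of a library Ifitm1 measured 196, 225 and 397 CPM in the femur and 117, 148 and 107 CPM in the mandible (log2 fold change -1.22, SE 0.33, edgeR adjusted p = 0.389, DESeq2 adjusted p = 0.0202). The sites did not overlap, as was so for 5.69% of genes in this direction. In such a sum over cell types, fewer cells that hold a transcript and less of it per cell cannot be told apart. Without femur replicate 3 the fold change over all cells was -0.69 (adjusted p = 0.676). Its omission took cluster 0 to -0.17, cluster 1 to -0.21, cluster 5 to -0.06, cluster 7 to -0.44, cluster 8 to -1.39 and cluster 4 to 0.30, so that Ifitm1 was then lower in 8 of 9 clusters. In clusters 2, 3 and 6 it was -0.64, -0.78 and -1.01 without it. In cluster 6 the B cells held 7.59% of the Ifitm1 UMIs and the 138 neutrophil-labelled cells 90.7%. These neutrophils made up 7.69, 22.2 and 25.0% of its cells in femur replicates 1 to 3 and 17.0, 10.9 and 9.69% in mandible replicates 1 to 3, and their part in the value was not tested.

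Femur replicates 2 and 3 carried the same library numbers, 6 and 7, as mandible replicates 1 and 2, though the labels do not say what the number marks. Within number 6 the log2 ratio of mandible to femur for Ifitm1 was -0.54 in cluster 1 and -0.87 in cluster 2, and within number 7 it was -1.16 and -1.38. The ratio was negative for both numbers in all 9 clusters. A fit on these 4 libraries with the number as a block called Ifitm1 in 7 clusters, beside 5.25% of all gene and cluster pairs, and had 1 residual degree of freedom. Neither pair is shown to share an animal or a day.

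Ifitm2 was lower in 9 of 9 clusters, at a log2 fold change from -0.10 (SE 0.21) in cluster 4 to -0.91 (SE 0.62) in cluster 8. Cluster 6 had the lowest unadjusted p (-0.83, SE 0.36, edgeR adjusted p = 1.00), and there the neutrophil-labelled cells held 76.3% of the Ifitm2 UMIs and the B cells 19.6%. Ifitm2 measured 109, 134 and 307 CPM there in the femur and 94.8, 145 and 82.8 CPM in the mandible, with overlap. The fold change of cluster 6 lay between -1.14 and -0.20 when each library was left out in turn. In cluster 1 it measured 1040, 720 and 2344 CPM in the femur and 560, 1223 and 880 CPM in the mandible (-0.50, SE 0.45), and in cluster 2 the fold change was -0.61 (SE 0.43, adjusted p = 0.627). With femur replicate 3 left out Ifitm2 was lower in 3 of 9 clusters, with 0.16 in cluster 1 and -0.0016 in cluster 2. Within library number 6, which does not hold that library, the log2 ratio of mandible to femur for Ifitm2 was -0.36 in cluster 1 and -0.39 in cluster 2, and it was negative in 8 of 9 clusters. Within number 7 it was -0.94 and -0.86, and negative in 9 of 9. The fit with the number as a block, with 1 residual degree of freedom, called Ifitm2 in 4 clusters (1, 2, 6 and 7). Of all genes it called 1587 of 11257 in cluster 1, 1268 of 10191 in cluster 2, 85 of 8251 in cluster 6 and 90 of 6614 in cluster 7.

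Ifitm3 lay close to 0, from -0.10 (SE 0.19) in cluster 5 to 0.19 (SE 0.31) in cluster 7. In cluster 5, 2 SE on either side gave an interval from -0.48 to 0.29. Over all cells it was 0.03 (SE 0.23). Without femur replicate 3 it stood at 0.31 over all cells (SE 0.18, adjusted p = 0.684), at 0.60 in cluster 7 and at 0.01 in cluster 5.

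Ifitm6 had its highest fold change in cluster 1. It measured 574, 244 and 716 CPM in the femur and 524, 1360 and 846 CPM in the mandible (log2 fold change 0.96, SE 0.45, edgeR adjusted p = 0.394). The sites overlapped, with femur replicate 2 the lowest and mandible replicate 2 the highest. Within library number 6 the log2 ratio was 1.10 and within number 7 it was 0.93. The fit with the number as a block, with 1 residual degree of freedom, called Ifitm6 in clusters 1 and 2. It called 1587 of 11257 genes in cluster 1 and 1268 of 10191 genes in cluster 2. The fold change of Ifitm6 in cluster 1 lay between 0.50 and 1.30 when each library was left out in turn. In cluster 0, where the gene was highest, the fold change was 0.07 (SE 0.20), and in cluster 8 it was -0.16 (SE 0.52). Without femur replicate 3 the value was 1.30 in cluster 1 (SE 0.47, adjusted p = 0.299), 0.23 in cluster 0 and 0.16 in cluster 8.

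**Figure D4:**
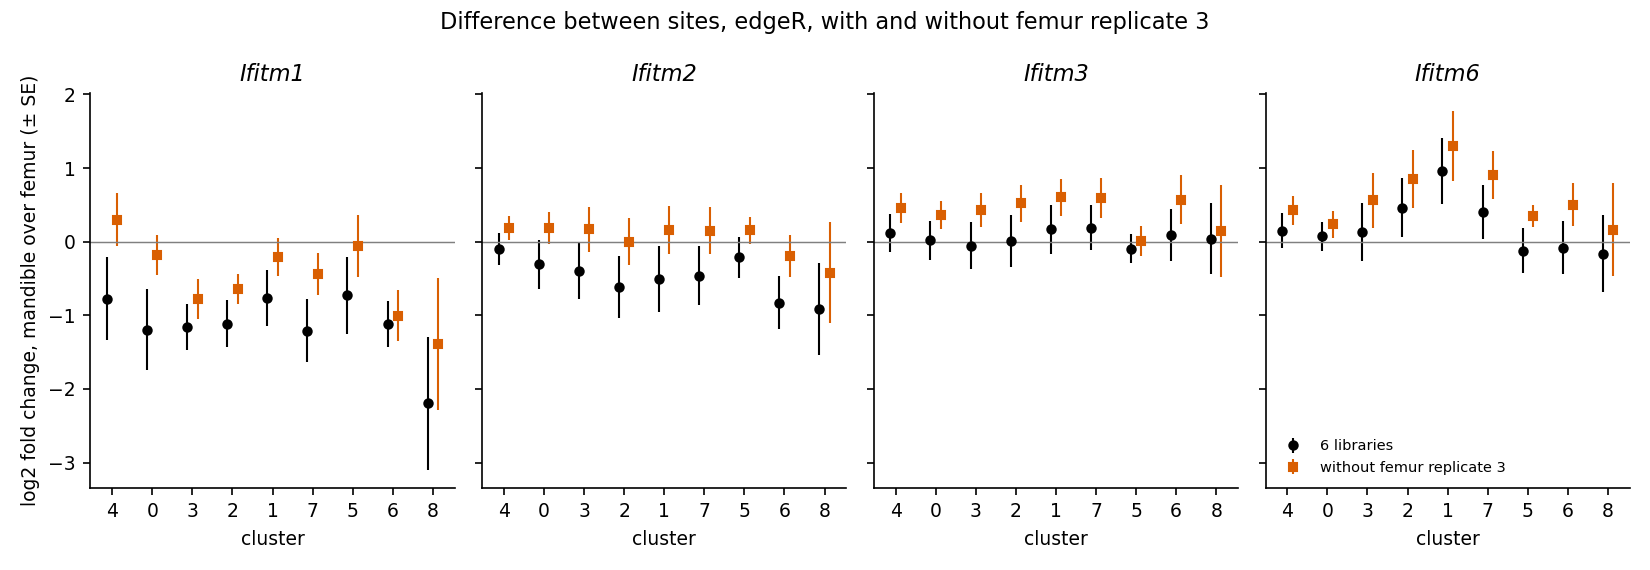
Log2 fold change of each Ifitm gene, mandible over femur, with its SE in each cluster, from edgeR on 6 libraries (black circles) and without femur replicate 3 (orange squares). Ifitm1 lies below 0 in all 9 clusters with 6 libraries and moves toward 0 without femur replicate 3, to -0.21 in cluster 1 and to 0.30 in cluster 4.

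The share of cells with a UMI was compared after each cell had been thinned to 1000 UMIs. For Ifitm1 in cluster 2 it was 29.6, 27.8 and 40.1% in the femur and 17.7, 21.8 and 17.7% in the mandible. In cluster 0 it was 4.47, 4.55 and 10.0% against 2.38, 2.89 and 2.16%. The sites did not overlap in 4 of 36 pairs, all of them Ifitm1 (clusters 0, 2, 3 and 8), beside 13.3% of all gene and cluster pairs, so that the count is near the background. Cluster 8 held only 11 to 15 cells in femur replicates 2 and 3 and in mandible replicates 1 and 3. The count was 7 of 36 without femur replicate 3, beside 26.9%. An exact 2-sided permutation test over the 20 assignments gave p = 0.10 for each, the smallest value that 3 against 3 libraries allow, and 0.90 adjusted over 36 pairs. As counted, the share of cells with an Ifitm1 UMI was 50.7% ± 10.2 in cluster 2 (SD, n = 6). Cluster 6, mostly B cells, had 11.6% ± 8.35 as counted and 5.25% and 2.38% as thinned means of femur and mandible.

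The site effect was also set side by side between cluster 5 and cluster 1. The log2 CPM of Ifitm6 was 0.98 higher in cluster 5 than in cluster 1 in the femur and 0.03 higher in the mandible. The difference between the sites was -0.95 (SE 0.43, limma adjusted p = 0.519), and none of the 4 members nor any of 10383 genes passed the threshold. For Ifitm1 the clusters differed by -3.08 in femur libraries and by -3.06 in mandible libraries, 0.02 apart (SE 0.29). With each library left out in turn the difference lay between -1.31 (without femur replicate 1) and -0.64 (without femur replicate 2) for Ifitm6 and between -0.17 (without mandible replicate 2) and 0.30 (without mandible replicate 1) for Ifitm1. For Ifitm6 a block on the library number gave -1.35, and cluster 5 against cluster 0 gave -0.05.

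The wider interferon pathway was measured with a list of 63 genes, of which 61 were in the files and which held no Ifitm gene. Genes of this list were lower in mandibular-derived cells in most cases, but 0 passed the edgeR threshold in any cluster, while DESeq2 called 7 of 428 gene and cluster pairs, beside 0.927% over all genes. In cluster 5, 53 of 57 tested genes were lower, beside 52.4% of all genes, with a median log2 fold change of -0.36 beside -0.01 over all genes. In that cluster 24 genes were lower at an unadjusted p under 0.05, beside 3.86% of all genes. In cluster 2 it was 19 of 53 genes (6.4% of all genes) with a median of -0.30, and in cluster 1 it was 13 of 55 (6.54%) with a median of -0.27. Over all cells of a library 48 of 57 were lower, beside 47.8% of all genes, and 19 of them at an unadjusted p under 0.05, beside 4.68%. Genes of the list were read from the same libraries and may vary together, so these counts are not independent. Neutrophil-labelled cells of cluster 5 ranged from 230 of 952 cells in mandible replicate 1 to 717 of 1443 in femur replicate 3. Their part in the values of that cluster was not tested. Without femur replicate 3, 51 genes were lower in cluster 5 with a median of -0.35, and the medians of clusters 2 and 1 were -0.11 and -0.15. The number of genes lower at an unadjusted p under 0.05 was 6 in cluster 1 (beside 4.24% of all genes) and 11 in cluster 2 (beside 4.4%) without mandible replicate 3, and 12 over all cells (beside 3.51%) without mandible replicate 2. In cluster 0 the list's median went from -0.09 to 0.06 and in cluster 4 from -0.13 to 0.04 when femur replicate 3 was left out. In cluster 6 it was -0.03, and it was 0.10 without femur replicate 2 and also without mandible replicate 2.

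By role, the interferon genes Ifnb1, Ifnl2 and Ifnl3 had no UMI. For 0 of 69776 cells this allows a share of cells with a UMI of up to 0.0043%, and it sets no limit on the share that expresses these genes. The lowest fold changes in cluster 5 among genes with at least 10 CPM were those of antiviral effectors. Ifit3 measured 47.8, 48.1 and 34.6 CPM in the femur and 29.9, 15.8 and 24.1 CPM in the mandible (-0.94, SE 0.22, edgeR adjusted p = 0.594). Ifit2 stood at -1.0003 (SE 0.28) and Ifit3b at -1.06 (SE 0.25), and these 3 genes encode related antiviral proteins with tetratricopeptide repeats. The sites did not overlap for any of them, as was so for 7.89% of all gene and cluster pairs in this direction, but they were taken as the lowest values of the list. Femur replicate 3 was the lowest femur library for Ifit2, Ifit3 and Ifit3b in cluster 5, in contrast to its place for Ifitm1 and Ifitm2. Without it the 3 values were -1.12 (Ifit2), -1.0007 (Ifit3) and -1.11 (Ifit3b). At the other end stood the kinase Tyk2 (0.11, SE 0.14), Dhx58 (0.04, SE 0.17) and Psmb8 (0.02, SE 0.13), which were -0.00079, 0.03 and 0.06 without femur replicate 3.

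In cluster 1 the lowest fold changes were those of Isg15, a ubiquitin-like protein (-0.73, SE 0.32), Ifit3 (-0.68, SE 0.27) and Ifit3b (-0.64, SE 0.23). Isg15 measured 119, 184 and 323 CPM in the femur and 124, 99.8 and 124 CPM in the mandible, which overlapped. Without femur replicate 3 Isg15 stood at -0.22, Ifit3 at -0.26 and Ifit3b at -0.35. Cmpk2 (0.23, SE 0.14), Ifi27 (0.18, SE 0.21) and Dhx58 (0.16, SE 0.14) had the highest values, and without femur replicate 3 they stood at 0.20, 0.45 and 0.18. None of these passed the threshold (edgeR adjusted p from 0.258 to 0.781).

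**Figure D5:**
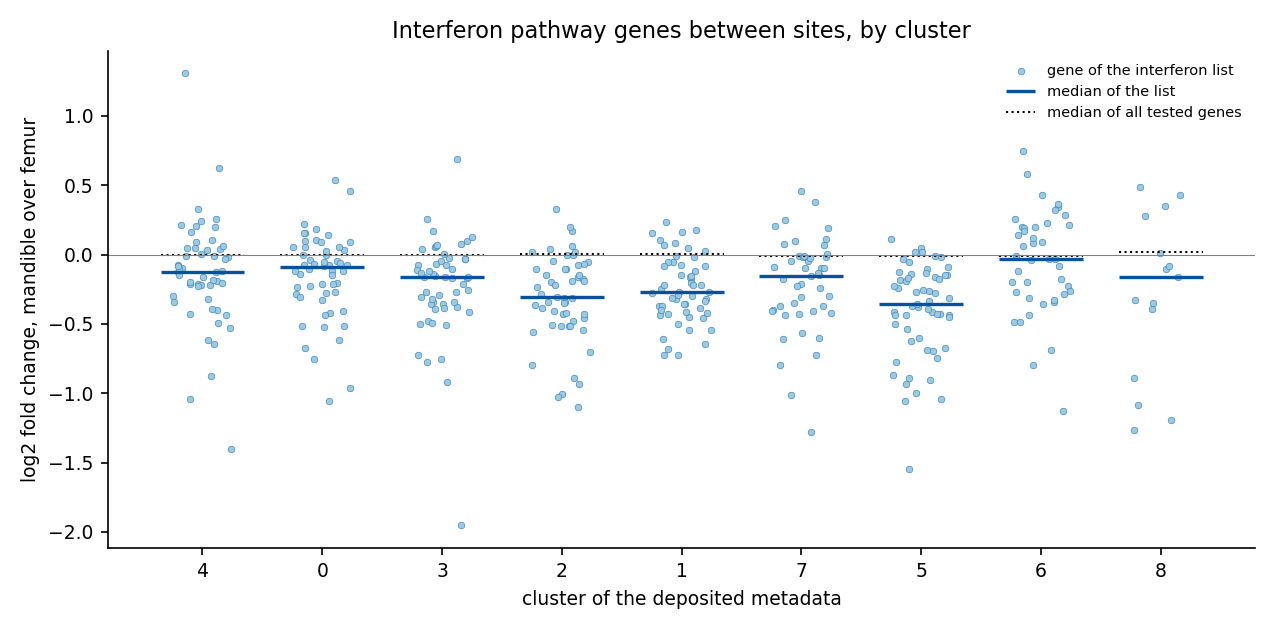
Log2 fold change, mandible over femur, of each tested gene of the interferon list by cluster, with the median of the list (solid line) and of all tested genes (dotted line). With 6 libraries the list's median lies below that of all genes in the 9 clusters (in clusters 0, 4 and 6 it turned positive without 1 library) and is lowest in cluster 5, at -0.36.

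Genes whose products modify Ifitm proteins (Zdhhc20 and Nedd4) or bind them (Zmpste24 and Vapa) were followed over the same clusters. Zmpste24, a membrane protease, stood at 347 ± 54.8 CPM in cluster 0 and 20.2 ± 14.3 CPM in cluster 1 (SD, n = 6). Nedd4, a ubiquitin ligase that marks Ifitm3 for breakdown, stood at 91.9 ± 13.6 and 20.7 ± 6.91 CPM in these clusters, whereas Zdhhc20, a palmitoyltransferase, stood at 71.6 ± 10.6 and 146 ± 24.2 CPM and Vapa, a membrane contact protein, at 121 ± 5.15 and 125 ± 7.57 CPM. Between the sites none of the 4 passed the edgeR threshold in any cluster. In cluster 1 Nedd4 was higher in the mandible without overlap (log2 fold change 0.91, SE 0.21, edgeR adjusted p = 0.123), as were 5.02% of all gene and cluster pairs. Zmpste24 stood there at 1.03 (SE 0.48, adjusted p = 0.397) with overlap. Without femur replicate 3 Nedd4 stood at 0.74 and Zmpste24 at 1.11.

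Other Ifitm genes were rare. Ifitm10 had 7534 UMIs in all cells and at most 16.7 ± 3.47 CPM as a mean of a cluster (cluster 3). It was higher in the mandible without overlap in 4 of 9 clusters (2, 3, 4 and 7), beside 5.02% of all gene and cluster pairs (cluster 2, log2 fold change 0.73, SE 0.20, edgeR adjusted p = 0.173; 0.83 without femur replicate 3). Ifitm5, known from bone-forming osteoblasts, had 892 UMIs and at most 2.20 ± 1.28 CPM (cluster 1), and Ifitm7 had 32 UMIs. By comparison the members had 175871 (Ifitm1), 425826 (Ifitm2), 720439 (Ifitm3) and 1190194 UMIs (Ifitm6).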

How the data were processed

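CD11b+ marrow cells of 3 femur and 3 mandible libraries had been sequenced with 10x Genomics 3' chemistry. The authors deposited raw UMI counts of each gene in each barcode from Cell Ranger on mm10 (version 7.0.1 in the submitters' processing notes and 7.1.0 in the matrix header), without pooling. Their metadata table gives, for kept cells, the deposited total counts, the mitochondrial reads in percent, phase calls, reference labels and clusters at resolution 0.1 of integrated values. That integration decides which cells are compared and did not change the counts. The deposited marker table holds the authors' own fold changes and p-values of clusters against other cells and was not used. Whether counting used the strand is not given in the sources used here.

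UMIs were summed per library and cluster and compared with edgeR 4.0.16 (R 4.3.3; quasi-likelihood test, TMM, default filter on low counts, no covariate, false discovery rate 0.05, mandible over femur). No library had fewer than 10 cells in a cluster. DESeq2 1.42.0, other scaling, no filter, each library left out, a replicate block, and omission of the 5% of cells with the most UMIs (possible doublets) were alternatives. Doublets were not called otherwise. The site effect in cluster 5 against cluster 1 used limma 3.58.1 (log2 CPM after adding a prior count of 2). Shares were thinned to 1000 UMIs per cell as an exact expectation. The steps were tested on simulated data. Precision was limited by the spread between 3 libraries per site, which was not set against depth, and limits for counts of 0 (3 counts) cover counting error only.

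The members and lists were chosen with earlier results of these data known. Besides the members, the text names by rule the 5 genes most like each member, interferon genes past the threshold or, in clusters 1 and 5, the 3 largest rises and falls at 10 CPM or more, and all partner and other Ifitm genes.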

Additional observations from a re-analysis of the deposited data

How the results depend on the processing

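Of the fold changes recomputed under each alternative, 232 kept direction and side of the threshold, 23 reversed and 22 passed it. The 0 of 36 called pairs became 2 with DESeq2, 8 without the filter on low counts and 13 with a replicate block on the library number (4 libraries, 1 residual degree of freedom), and the 0 of 4 over all cells became 1 with DESeq2. Without the filter the 8 pairs were Ifitm1 in clusters 1, 2, 3, 6, 7 and 8, Ifitm2 in cluster 2 and Ifitm6 in cluster 1. The interferon list's 0 became 7 with DESeq2, 20 without the filter and 58 with that block. In the same order, the 24 calls of 84533 pairs over all genes became 784 of 84533, 1907 of 179989 and 4563 of 86978. The causes were not tested. Deviations from the site mean correlated across genes at -0.40 to 0.61 for libraries of the same title number, with all 3 pairs over 0.1 in 0 of 9 clusters. For the same library number they correlated at 0.29 to 0.50 in clusters 0 to 3 and at -0.63 to 0.33 in the others, with both pairs over 0.1 in 6 of 9 clusters, but these are 2 pairs and the labels do not say what the number marks. The replicate block on the title number left 0 calls of members and of the list. Leaving out a library left both at 0 too, with 6 to 127 calls over all genes (127 without mandible replicate 1). Ifitm1 was lower in 8 to 9 clusters and Ifitm2 in 3 to 9 (3 without femur replicate 3). Pairs lower without overlap numbered 3 to 8 of 36, beside 10.4% to 20.1% of all pairs with a library left out (5 without femur replicate 1, beside 11.4%, 6 without femur replicate 2, beside 11.3%, and 8 without mandible replicate 2, beside 10.4%). Clusters with a lower share of the family numbered 5 to 8 for Ifitm1 (8 without mandible replicate 2) and 6 to 8 for Ifitm2, and those with a higher share of Ifitm6 3 to 5 (5 without femur replicate 1), with no counterpart over all genes. These counts without overlap were added after seeing the data. Thinned shares without overlap numbered 4 to 9 (4 without mandible replicate 3, 7 to 9 without each other library), beside 20.3% to 26.9% of all pairs, and 7 as counted, beside 11.7%.

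Leave-one-out ranges crossed 0 in 1 of 9 clusters for Ifitm1, 6 for Ifitm2, 9 for Ifitm3 and 6 for Ifitm6. Of the values in the text these were -1.18 to 0.30 for Ifitm1 in cluster 4. For Ifitm2 they were -0.85 to 0.16 (cluster 1), -0.27 to 0.19 (cluster 4) and -0.70 to 0.0098 (all cells). For Ifitm3 they were -0.22 to 0.012 (cluster 5), -0.086 to 0.60 (cluster 7) and -0.11 to 0.31 (all cells), the last -0.0043 with the library number block. For Ifitm6 they were -0.075 to 0.23 (cluster 0), -0.49 to 0.16 (cluster 8, 0.038 with that block) and -0.26 to 0.32 (all cells). Ifitm6 over all cells was also -0.012 with DESeq2 and with RLE, -0.021 without the filter and -0.020 without the deepest cells, where Ifitm1 in cluster 8 did not pass the filter on low counts. In monocyte-labelled cells of cluster 5 Ifitm1 stood at -1.16. It measured 10.6, 19.1 and 31.9 CPM in the femur and 7.15, 11.3 and 9.86 CPM in the mandible, with overlap. These levels rest on 44 to 185 UMIs in a library and overlap those of the B cells of cluster 6.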
